A study of Mus musculus with 6 samples.

Results

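Solute carriers are membrane proteins that move small molecules and ions across the plasma membrane and the membranes of organelles. The 66 genes described here are those of the deposited transcript table whose symbol has the form Slc, family number, letter, member number. Left out were the mitochondrial carriers of family 25 (18 listed) and 7 named carriers of cystine, large amino acids, glucose, lactate and metals, of which 6 were listed. The 66 come from 90 listed genes with such a symbol, from 31 families, and from 7171 loci in the whole table. A locus is the set of overlapping transcripts that the authors' assembly joined under 1 identifier. The members' loci hold 142 listed transcripts, of 15113 in the table.

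The cells were C17.2, a multipotent mouse neural stem cell line of CD1 x C57BL/6 origin, and their RNA was sequenced. The groups are heme-treated cells, cells under neural induction (Knockout DMEM with GlutaMAX, N2 supplement and 10 ng/ml of the neurotrophin BDNF) and control cells in growth medium (DMEM/F12 with 10% fetal bovine serum), each with 2 samples that the series' design text calls biological replicates. The heme dose, the durations and the culture medium used with heme are not stated in the sources at hand, nor are separate cultures for the replicates. Without that, p-values measure the spread between these samples, which may be technical. The C17.2 line is 1 immortalised clone, so the groups share its genotype.

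Carriers work as cotransporters, exchangers or uniporters, often driven by a sodium or a proton gradient. Dividing neural progenitors take up amino acids, nucleosides, vitamins and trace metals through them. Carriers of family 35 bring nucleotide sugars into the Golgi apparatus and the endoplasmic reticulum for glycosylation. Heme leaves endolysosomes through Slc48a1. Slc11a2 moves iron out of endosomes into the pool that iron freed by heme oxygenase also joins.

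The second heme column holds the values of the first, each multiplied by a factor between 1.25 and 1.5 (1.25 to 1.5 also for the 129 member transcripts compared), and 1150 transcripts are listed at 0 in both. The columns were counted as 1 sample, so the heme group is 1 library without a replicate of its own. The 5 libraries used rest on 4.14 to 4.56 gigabases of mapped sequence, read from the ratio of the deposited coverage to the FPKM. Among markers of the labelled cell type, Nes (108 to 132 FPKM), Vim (663 to 798) and Sox2 (13.6 to 19.8) were listed in all 5. Pax6, Msi1 and Fabp7, on the same list, are not in the table analysed here. The mesenchymal genes Col1a1 (807 to 1075 FPKM) and Col3a1 (866 to 1382) were also high. No marker on the lists for astrocytes, microglia, endothelium or red cells is in the table analysed here, and 2 of 6 neuronal markers are. Their sum, Tubb3 and Map2, was 32.6 FPKM with heme, 23.2 and 29.04 with induction, and 23.3 and 21.8 in the controls. Map2 alone was at 18.6 FPKM with heme, 11.7 and 15.4 with induction, and 10.41 and 10.45 in the controls. Its log2 fold change against control was 0.78 ± 0.21 (SE) with heme and 0.34 ± 0.17 with induction (adjusted p = 0.999 and 0.934, limma). Tubb3 differed less, at 13.99 FPKM with heme, 11.5 and 13.6 with induction, and 12.9 and 11.3 in the controls. The 4 listed mesenchymal markers of 5 summed to 2746 FPKM with heme, 2698 and 2921 with induction, and 2812 and 2035 in the controls, with control replicate 2 the lowest. The part of either in the carriers' values was not tested.

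Levels below are in FPKM, the deposited read abundance scaled for transcript length and library size, added up over a locus. The table holds a selection of transcripts: GENCODE M21 annotates 458 transcripts of the members, and for 63 of the 66 genes it has more than the table lists. A sum can therefore differ between libraries because reads went to a transcript that is not listed, and this cannot be told apart from less RNA. In bulk RNA, fewer cells of a type and less RNA per cell cannot be told apart either.

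All 66 members had a mean of at least 1 FPKM over the 5 libraries, the filter used for testing. The median of their means was 13.3 FPKM, against 17.7 FPKM over all loci. Their summed FPKM was 1310 in the heme library, 1313 and 1296 in the induction libraries, and 1280 and 1327 in the controls, which is 0.321% to 0.325% of the listed total in each library. The carrier RNA as a share of the listed total was thus nearly equal in the 3 conditions. The 10 highest means were those of Slc6a6, Slc38a2, Slc38a10, Slc39a7, Slc48a1, Slc39a1, Slc30a5, Slc30a4, Slc20a1 and Slc29a1, and the lowest was Slc9a8 at 1.17 FPKM. Means were at 10 FPKM or more for 39 members and between 1 and 10 for 27. Slc7a1 passed the filter through 1 library alone.

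**Figure D1:**
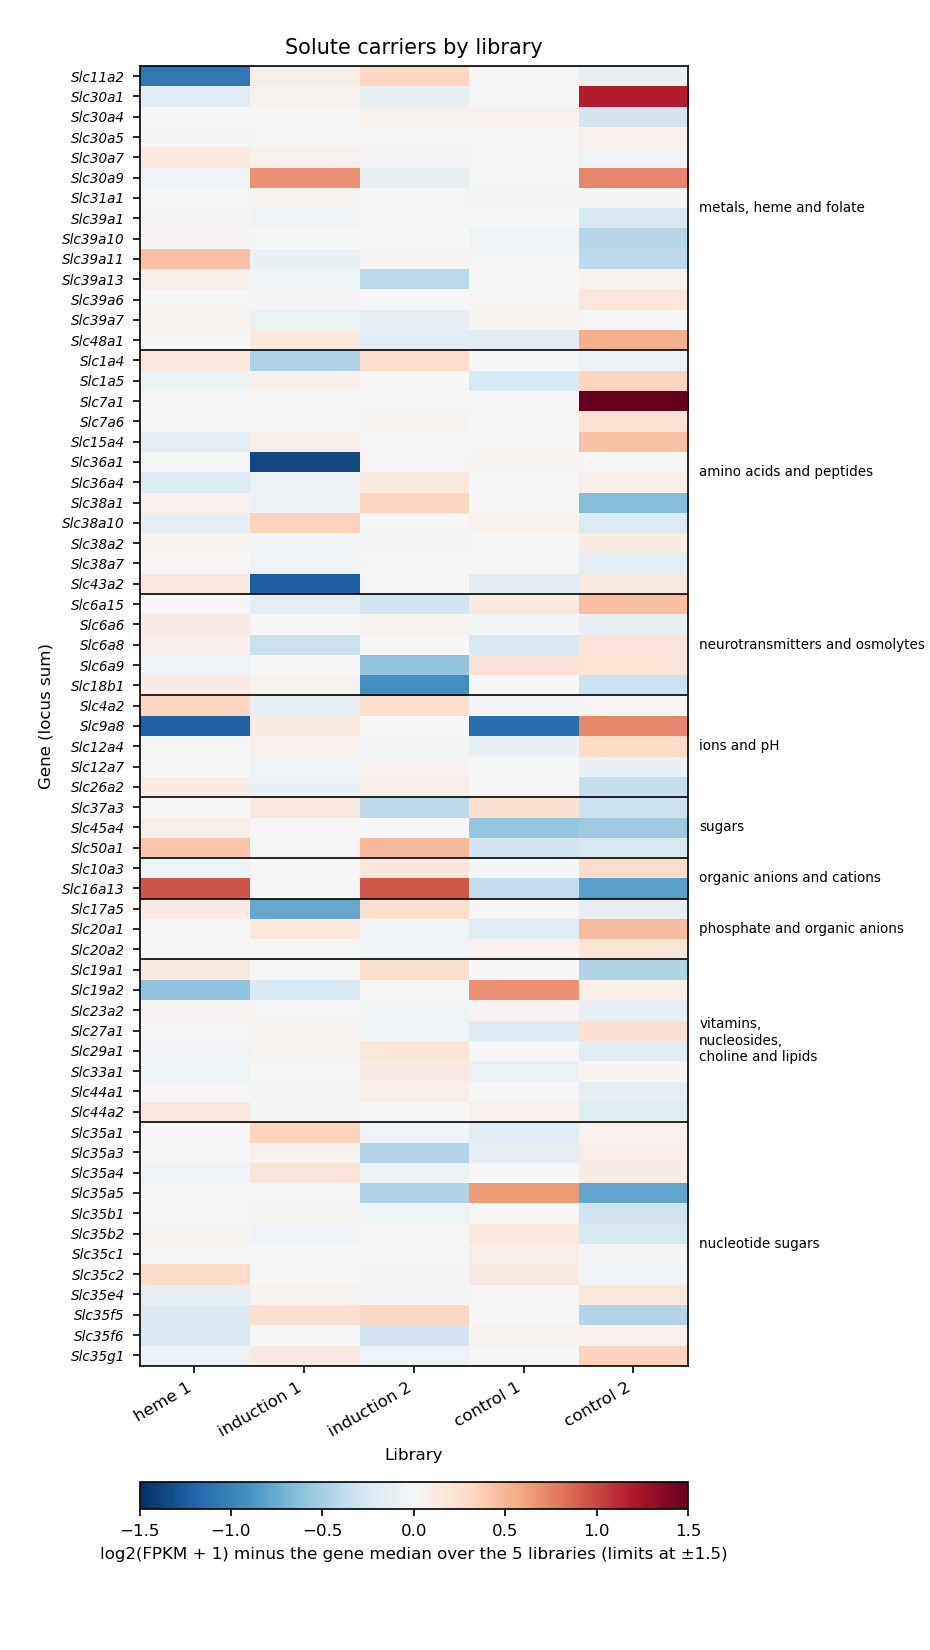
Each row is 1 of 64 carriers (2 of the 66 are not drawn) and each column 1 library, with colour for log2(FPKM + 1) minus the gene's median over the 5 libraries, cut at ±1.5, and horizontal lines between roles. Most cells are pale, and the dark ones are scattered over genes, with control replicate 2 the highest library for 22 of all 66 carriers and the lowest for 23.

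Heme was compared with control to ask which carriers differ after heme. None of the 66 members passed an adjusted p of 0.05 (limma, Benjamini-Hochberg over 7028 loci), against 0.0427% of all loci (0% higher and 0.0427% lower), and the lowest adjusted p among members was 0.766. At an unadjusted p below 0.05 there were 4 members, or 6.06%, against 3.6% of all loci. The heme library lay above both controls for 21 members (31.8%, against 25.4% of all loci) and below both for 19 (28.8%, against 31.1%), 40 in either direction (60.6%, against 56.5%). The median log2 fold change was 0.0072 over the members and -0.0038 over all loci.

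Induction was compared with control to ask which carriers differ after neural induction. Again 0 of 66 passed, against 0.0142% of all loci (0% higher, 0.0142% lower), and the lowest adjusted p was 0.934 (limma). An unadjusted p below 0.05 was found for 2 members (3.03%, against 2.96% of all loci). Both induction libraries lay above both controls for 9 members (13.6%, against 18.2%) and below both for 9 (13.6%, against 12.9%), 18 in either direction (27.3%, against 31.1%). The members' median log2 fold change was -0.023, and that of all loci 0.019.

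Between heme and induction, 0 of 66 passed, against 0.0569% of all loci (0.0142% higher and 0.0427% lower with heme), with a lowest adjusted p of 0.719 (limma). The 1 member at an unadjusted p below 0.05 was Slc11a2 (1.52%, against 3.32% of all loci). The heme library lay above both induction libraries for 21 members (31.8%, against 27.2%) and below both for 18 (27.3%, against 40.3%), 39 in all (59.1%, against 67.5%). The medians were 0.012 and -0.023. Members and all loci differed by a few percentage points in most of these shares, and no share is read as a property of the carriers.

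**Figure D2:**
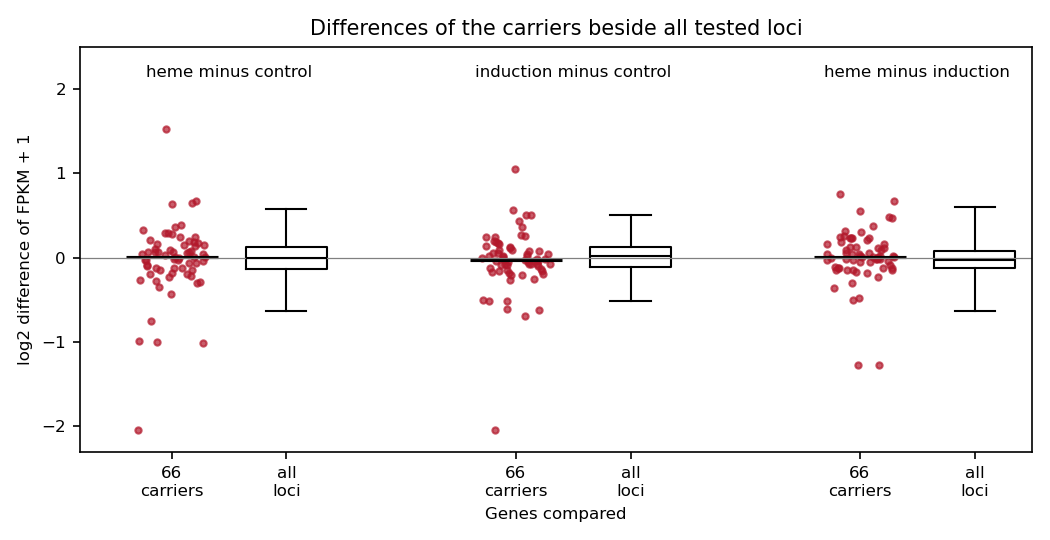
Points are the log2 differences of FPKM + 1 of the 66 carriers, with their median as a bar, beside boxes for all 7028 loci (line at the median, box from the 25th to the 75th percentile, whiskers at the 5th and 95th). The carriers' medians are at 0.0072, -0.023 and 0.012, and the lowest point against control, Slc7a1 at -2.04 in both comparisons, comes from 1 control library.

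The metal and heme carriers number 14 and made up the largest role by FPKM, with a sum of 372 in the heme library, 379 and 354 in the induction libraries, and 366 and 394 in the controls. None passed in any comparison. In heme against control the log2 fold change was above 0 for 8 of 14, and the median was 0.0054.

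Slc11a2 encodes the proton-coupled carrier of ferrous iron, also known as DMT1 (chromosome 15, 100387898 to 100423055, minus strand, GRCm38). It was at 2.73 FPKM in the heme library, at 7.34 and 8.73 FPKM in the induction libraries, and at 6.83 and 6.26 FPKM in the controls. The heme library was the lowest of the 5, and the other 4 lay close together. The log2 fold change was -1.02 ± 0.25 (SE) in heme against control (adjusted p = 0.953, limma) and -1.27 ± 0.25 in heme against induction (adjusted p = 0.719). In induction against control it was 0.26 ± 0.20 (adjusted p = 0.934, limma). In induction replicate 2, 7.37 of the 8.73 FPKM stood on MSTRG.7232.2, an assembled transcript with no gene name that was listed at 0 in the other 4 libraries. The annotated ENSMUST00000023774 was at 1.36 FPKM there, at 2.73 with heme, at 7.34 in induction replicate 1, and at 6.83 and 6.26 in the controls. For this transcript alone the log2 fold change in heme against induction was -0.25 ± 0.94, and the heme value lay between the induction replicates. Against control it was -1.02 ± 0.94.

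Slc48a1, the heme carrier of endosomes and lysosomes (chromosome 15, 97784355 to 97792692, plus strand), was at 58.96 FPKM in the heme library, 65.3 and 52.6 FPKM in the induction libraries, and 52.8 and 86.3 FPKM in the controls. The heme value lay between the controls, and only control replicate 2 stood apart. The log2 fold changes were -0.19 ± 0.32 with heme and -0.20 ± 0.27 with induction (adjusted p = 0.999 and 0.934, limma), and without control replicate 2 they turned to 0.16 and 0.15.

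Zinc carriers of family 30 move zinc out of the cytosol and those of family 39 move it in. Of the 5 listed in family 30, 2 had a positive log2 fold change with heme and 2 with induction. Of the 6 in family 39, 5 had a positive one with heme (median 0.10) and 3 with induction (median 0.0090), and 0 passed. The heme library lay above both controls for 4 of these 6, a position that 25.4% of all loci have.

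Slc39a11, a zinc carrier of intracellular membranes, had the largest of these differences (chromosome 11, 113244853 to 113565756, minus strand). It was at 7.56 FPKM in the heme library, 4.91 and 5.46 in the induction libraries, and 5.31 and 3.83 in the controls, and the heme library was the highest. The log2 fold change was 0.63 ± 0.30 against control and 0.47 ± 0.30 against induction (adjusted p = 0.999 and 1, limma). Slc39a10, a zinc importer of the plasma membrane, was at 25.99 FPKM with heme, 25.1 and 25.2 with induction, and 24.1 and 18.5 in the controls. Here control replicate 2 was the low one. The other plasma membrane importers were closer to equal: Slc39a1 ranged from 36.7 to 43.9 FPKM and Slc39a6 from 25.5 to 28.8, with the lowest Slc39a1 value in control replicate 2.

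The endoplasmic reticulum zinc carrier Slc39a7 had 67.6 FPKM with heme, 62.3 and 61.3 with induction, and 68.4 and 66.5 in the controls, so both induction libraries were the lowest (log2 fold change -0.12 ± 0.071 against control, adjusted p = 0.934, limma). Its locus also holds a listed transcript of H2-Ke6, and the 2 transcripts named for Slc39a7 are annotated as retained introns. Slc39a13, of the Golgi and vesicles, was at 27.7 FPKM with heme, 24.9 and 19.3 with induction, and 25.9 and 26.9 in the controls.

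Slc30a1 encodes the zinc exporter of the plasma membrane, a classical target of the metal-sensing factor MTF-1 (chromosome 1, 191906767 to 191913247, plus strand). It was at 0.865 FPKM with heme, 1.148 and 0.925 with induction, and 1.08 and 3.70 in the controls. Control replicate 2 was the high library and the other 4 lay close together, with a log2 fold change of -0.75 ± 0.76 with heme and -0.62 ± 0.62 with induction (adjusted p = 0.999 and 0.934, limma). Without that library they were -0.16 and -0.031. The metallothionein Mt1, another MTF-1 target, was also highest in control replicate 2, at 46.7 FPKM with heme, 54.5 and 47.05 with induction, and 43.9 and 186 in the controls. Its part in the difference was not tested. The promoter of Slc30a1 is printed because it is the listed carrier best known as a target of MTF-1.

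In the RefSeq promoter of Slc30a1 (GRCm38.p6, chr1:191906531-191906830, plus strand, 250 bases before to 50 after the start), capitals mark the cores of the metal response element. The cores searched were TGCACNC and TGCGCNC on both strands, and both matches here read on the minus strand, starting 43 bases before and 30 bases after the start. The 2 cores differ at 1 base, so they cannot occupy the same position.
Slc30a1: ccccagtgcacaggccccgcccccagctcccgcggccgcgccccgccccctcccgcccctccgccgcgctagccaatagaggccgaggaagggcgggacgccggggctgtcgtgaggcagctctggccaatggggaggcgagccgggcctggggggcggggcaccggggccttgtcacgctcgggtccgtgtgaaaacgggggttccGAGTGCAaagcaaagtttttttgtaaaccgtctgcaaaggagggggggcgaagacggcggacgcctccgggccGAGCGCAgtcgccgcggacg

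Such cores are common. TGCACNC is in 12.6% and TGCGCNC in 15.4% of all 32851 promoters, and both are in 2.27%. Of 77 promoter entries, which cover 50 of the 66 members, 12 hold the first, 22 the second and 4 both. The genes with both are Slc30a1, Slc30a4, Slc29a1 and Slc37a3. Unlike Slc30a1, the other 3 were lower in control replicate 2 than in control replicate 1: Slc30a4, the zinc carrier of vesicles, was at 28.2 against 35.9 FPKM, Slc29a1 at 29.04 against 32.6 and Slc37a3 at 3.58 against 5.76. Of the other cores searched on both strands, TGACNNNGC (antioxidant response) was in 24.7% of member promoters and 12.4% of all, CACGTG (E-box) in 15.6% and 7.15%, and TGATGNAA (amino acid response) in 2.60% and 3.97%. The lists of promoters were not matched for base composition, and a link of any core with the levels of the carriers was not tested.

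Slc30a5, Slc31a1 and Slc30a7 varied little between libraries. Slc30a5, which loads zinc into the secretory pathway, was at 33.6 FPKM with heme, 33.9 and 34.2 with induction, and 34.2 and 35.8 in the controls. The copper importer Slc31a1 was at 21.8 FPKM with heme, 22.4 and 21.7 with induction, and 21.4 and 22.05 in the controls, a highest-to-lowest ratio of 1.05, the smallest of the 63 members above 0.5 FPKM in all 5 libraries. Slc30a7, of the Golgi, ranged from 7.26 to 8.41 FPKM, with the heme library highest.

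Slc30a9 shows how a short listed transcript can set an FPKM sum. The sum was 12.8 FPKM with heme, 22.2 and 12.4 with induction, and 13.5 and 23.1 in the controls. Of this, the 425-base fragment ENSMUST00000202770 held 1.42 FPKM with heme, 12.9 and 0.928 with induction, and 2.37 and 13.6 in the controls. When each transcript's FPKM was multiplied by its length in kilobases before summing, which gives a length-weighted FPKM that tracks the reads at the locus, the values were 65.1 with heme, 58.5 and 65.4 with induction, and 63.7 and 59.6 in the controls. The log2 fold change with heme was -0.43 ± 0.46 on FPKM sums and 0.077 ± 0.12 in length-weighted FPKM.

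**Figure D3:**
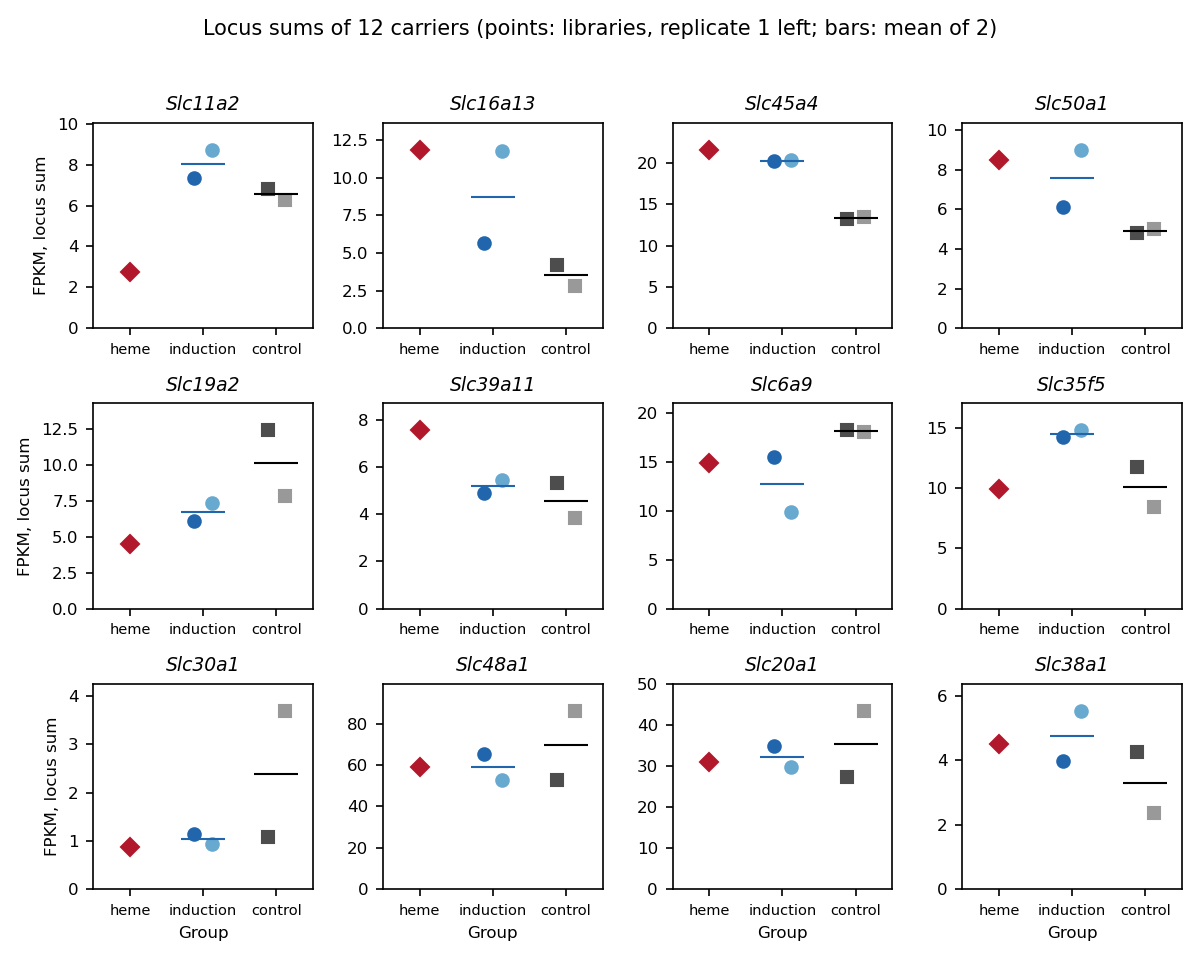
Points are FPKM sums of 12 carriers in each library (heme, then neural induction, then control, replicate 1 on the left), bars are means of 2 libraries, and every axis starts at 0. Slc11a2 is lowest in the heme library, the control pair lies below the other libraries for Slc45a4, Slc16a13 and Slc50a1, and control replicate 2 stands apart for Slc30a1, Slc48a1 and Slc20a1.

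The amino acid and peptide carriers (12 members) had a median log2 fold change of -0.045 with heme and -0.066 with induction, 4 and 3 of 12 were positive, and 0 passed. Slc38a2, the amino-acid-regulated importer of small neutral amino acids SNAT2, was at 104 FPKM with heme, 99.4 and 101 with induction, and 102 and 110 in the controls. The heme value lay between the controls, with log2 fold changes of -0.031 ± 0.091 and -0.079 ± 0.075 (adjusted p = 0.999 and 0.934, limma). Its relative Slc38a1 was far lower, at 4.49 FPKM with heme, 3.97 and 5.54 with induction, and 4.24 and 2.37 in the controls, with control replicate 2 the lowest. Slc38a10, a less studied member of the family, was at 75.4 FPKM with heme, 105 and 82.7 with induction, and 86.1 and 71.8 in the controls. In induction replicate 1, 55.4 FPKM of that sum stood on MSTRG.4150.3, a 2021-base transcript without a gene name that was at 0.990 to 5.20 FPKM in the other 4 libraries. In length-weighted FPKM the Slc38a10 locus ranged from 223 to 254, and its log2 fold change with induction was 0.24 ± 0.16 on FPKM sums and 0.00067 ± 0.092 on that scale.

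Slc1a5, a sodium-coupled exchanger of glutamine and other neutral amino acids, was at 18.3 FPKM with heme, 20.4 and 19.4 with induction, and 16.4 and 24.5 in the controls, whose pair spans all other values. Slc7a6, the light chain of a carrier of cationic and neutral amino acids, ranged from 22.1 to 26.02 FPKM, with control replicate 2 highest. Slc7a1, the cationic amino acid carrier CAT1, was listed at 0 in the heme library, both induction libraries and control replicate 1, and at 15.9 FPKM in control replicate 2. The only transcript listed for it is ENSMUST00000138257, whose coding sequence is incomplete in the annotation. Slc7a1 is 1 of 5 listed carriers on a list of genes known to be driven by the stress factor ATF4 (Slc1a4, Slc1a5, Slc6a9, Slc7a1 and Slc38a2). Their median log2 fold change was -0.12 with heme and -0.079 with induction, and 0 of 5 passed.

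For 3 low-level carriers induction replicate 1 stood apart. Slc36a1, which exports amino acids from lysosomes, was at 2.78 FPKM with heme, 0.485 and 2.81 with induction, and 2.86 and 2.79 in the controls. Slc43a2, a carrier of large neutral amino acids, was at 3.43 FPKM with heme, 0.713 and 3.01 with induction, and 2.61 and 3.42 in the controls. The sialic acid exporter of lysosomes Slc17a5 had 4.64 FPKM with heme, 2.03 and 5.24 with induction, and 4.18 and 3.75 in the controls, and induction replicate 1 was again the lowest library. Slc15a4, the histidine and peptide carrier of lysosomes, was at 4.87 FPKM with heme, 5.83 and 5.44 with induction, and 5.40 and 7.72 in the controls. The heme library was the lowest (log2 fold change -0.35 ± 0.30 against control, adjusted p = 0.999, limma, and -0.12 without control replicate 2). Slc38a7 ranged from 5.48 to 6.21 FPKM and Slc36a4 from 3.52 to 4.72, with the heme library lowest for Slc36a4. Over the 8 listed carriers of endosomes and lysosomes, Slc11a2 and Slc48a1 included, 3 were positive with heme (median -0.11) and 3 with induction (median -0.091), and 0 passed.

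Slc1a4, the neutral amino acid exchanger ASCT1, had a sum of 18.6 FPKM with heme, 11.7 and 20.3 with induction, and 16.5 and 15.7 in the controls, and its log2 fold changes were 0.19 ± 0.33 and -0.054 ± 0.27 (adjusted p = 0.999 and 0.988, limma). Its listed transcripts differed more. ENSMUST00000004634 was at 15.7 FPKM with heme and at 0.0421 and 18.1 with induction, against 0.264 and 0.0439 in the controls. ENSMUST00000109594 was at 0.339 FPKM with heme, 1.62 and 0.480 with induction, and 7.97 and 5.86 in the controls, above all other libraries (log2 fold change -2.55 ± 0.69 with heme and -1.99 ± 0.56 with induction, adjusted p = 0.654 and 0.846 by transcript, limma). The unnamed MSTRG.2754.3 was the most abundant in induction replicate 1, at 10.1 FPKM, and in the controls, at 8.31 and 9.77. Both annotated forms have 8 exons, and their coding sequences start at different codons and hold 1356 and 1596 bases. The first 30 coding bases are given because they separate the forms, with the start codon in capitals.
Slc1a4 ENSMUST00000004634: ATGctgctccgcatgctgcgcatgatcatc
Slc1a4 ENSMUST00000109594: ATGgagaagagcggcgagaccaacggctac

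The carriers of neurotransmitters and osmolytes (5 members) had a median log2 fold change of 0.094 with heme and -0.27 with induction, with 3 and 1 of 5 positive and 0 passing. All 5 were positive in heme against induction, with values of 0.092 to 0.56. Slc6a6, the taurine carrier, had the highest level of all 66, above 92.8% of all loci. It was at 131 FPKM in the heme library, 121 and 125 in the induction libraries, and 119 and 112 in the controls. The heme library was the highest and the controls the lowest, with log2 fold changes of 0.18 ± 0.087 and 0.089 ± 0.071 (adjusted p = 0.999 and 0.934, limma). The creatine carrier Slc6a8 was at 22.6 FPKM with heme, 16.8 and 21.4 with induction, and 18.03 and 24.6 in the controls. Slc6a15, an importer of branched-chain amino acids and proline in neurons, was at 4.11 FPKM with heme, 3.66 and 3.16 with induction, and 4.65 and 5.97 in the controls. The induction pair was below the control pair, with a log2 fold change of -0.51 ± 0.26 (adjusted p = 0.934, limma). Slc18b1, the vesicular polyamine carrier, was at 6.05 FPKM with heme, 5.70 and 2.42 with induction, and 5.46 and 4.15 in the controls. Induction replicate 2 was the low library, and without it the log2 fold change against control turned from -0.27 to 0.22.

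Slc6a9 encodes the glycine carrier GlyT1, which clears glycine at synapses (chromosome 4, 117834506 to 117869305, plus strand). It was at 14.8 FPKM with heme, 15.5 and 9.91 with induction, and 18.2 and 18.1 in the controls. The controls were the highest and induction replicate 2 the lowest, with log2 fold changes of -0.27 ± 0.28 with heme and -0.51 ± 0.23 with induction (adjusted p = 0.999 and 0.934, limma). In length-weighted FPKM they were -0.43 ± 0.12 and -0.34 ± 0.098 (adjusted p = 0.940 and 0.937, limma). The isoforms of GlyT1 differ at the amino terminus. ENSMUST00000169885 was the most abundant in the heme library (12.004 FPKM), in induction replicate 1 (11.2) and in the controls (11.3 and 11.7), and was at 0.272 FPKM in induction replicate 2. In that library ENSMUST00000030269 stood at 9.61 FPKM, against 2.70 with heme, 1.69 in induction replicate 1, and 6.79 and 2.39 in the controls. Their coding sequences hold 1563 and 1899 bases. The first 30 coding bases show the separate starts.
Slc6a9 ENSMUST00000169885: ATGgtggtgtccacatacattggcatctac
Slc6a9 ENSMUST00000030269: ATGgtaggaaaaggtgccaaagggatgttg

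**Figure D4:**
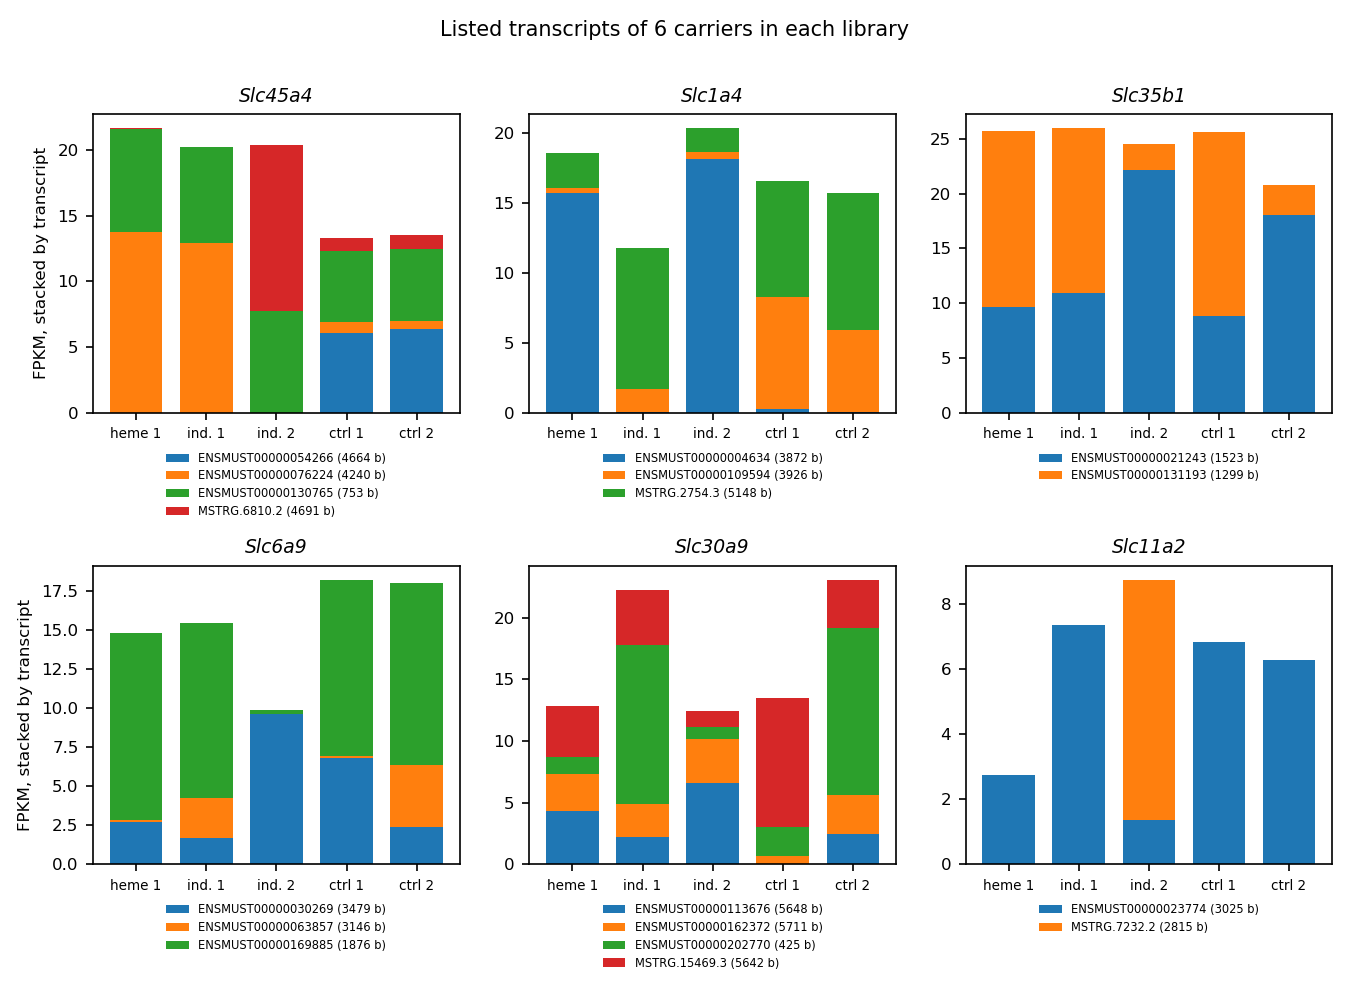
Stacked bars give the FPKM of each listed transcript of 6 carriers in each library (heme, then induction, then control), with transcript length in bases in the legends. The bar heights of Slc1a4, Slc35b1 and Slc6a9 differ less than their colours, the transcript at 6.08 and 6.37 FPKM in the controls of Slc45a4 is absent from the other bars, and the 425-base transcript of Slc30a9 swells the sums of induction replicate 1 and control replicate 2.

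Carriers of ions and pH (7 members) had medians of 0.044 with heme and 0.039 with induction, with 4 and 5 positive and 0 passing. Slc4a2, a chloride and bicarbonate exchanger, was at 23.2 FPKM with heme, 16.6 and 22.3 with induction, and 18.1 and 18.4 in the controls (log2 fold change with heme 0.33 ± 0.20, adjusted p = 0.999, limma). Slc9a8, a sodium and proton exchanger of the Golgi, was near 0 in the heme library (0.0131 FPKM) and in control replicate 1 (0.0653), and at 1.56 and 1.34 FPKM with induction and 2.86 in control replicate 2. Its only listed transcript is annotated as non-coding. The potassium and chloride cotransporters, which lower chloride in the cell, were steadier: Slc12a7 ranged from 16.4 to 18.1 FPKM, and Slc12a4 was at 24.3 with heme, 25.4 and 23.9 with induction, and 22.6 and 29.8 in the controls. The sulfate carrier Slc26a2 was at 12.1 FPKM with heme, 10.3 and 11.9 with induction, and 11.1 and 8.45 in the controls. The neuronal cotransporter Slc12a5, its counterpart Slc12a2 and the glial glutamate carriers Slc1a2 and Slc1a3 are not in the table analysed here.

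For Slc4a2 the listed forms again separated libraries within groups. ENSMUST00000115049 was listed at 0 in the heme library, in induction replicate 2 and in control replicate 2, and stood at 4.95 FPKM in induction replicate 1 and 6.14 in control replicate 1. ENSMUST00000080067 was at 7.96 FPKM with heme, 6.15 and 8.15 with induction, and 4.06 and 7.70 in the controls. The coding sequences hold 3684 and 3711 bases and start at different codons.
Slc4a2 ENSMUST00000115049: ATGgacttcctcctacgacctcagccagag
Slc4a2 ENSMUST00000080067: ATGagcagcgcccccaggcgccccgcctcg

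The 3 carriers assigned to sugars included Slc45a4, the member with the smallest p-value in both comparisons with control. All 3 were positive with heme (median 0.65) and 2 with induction (median 0.51), and 0 passed. Slc45a4, of the family of proton-coupled sugar carriers (chromosome 15, 73580290 to 73645762, minus strand), was at 21.6 FPKM in the heme library, 20.2 and 20.4 in the induction libraries, and 13.3 and 13.5 in the controls. The 3 libraries outside control lay together, and the controls did too, some way below. The log2 fold change was 0.65 ± 0.13 with heme (adjusted p = 0.766, limma) and 0.57 ± 0.10 with induction (adjusted p = 0.934). Both comparisons share the control samples. In length-weighted FPKM the values were 0.64 ± 0.11 and 0.60 ± 0.090.

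The transcripts at the Slc45a4 locus differed between the control pair and the rest. ENSMUST00000054266 was listed at 0 in the heme library and in induction replicate 2 and at 0.000894 FPKM in induction replicate 1, against 6.08 and 6.37 FPKM in the controls. ENSMUST00000076224 was at 13.7 FPKM with heme and 12.9 in induction replicate 1, listed at 0 in induction replicate 2, and at 0.825 and 0.593 in the controls. In induction replicate 2 the unnamed MSTRG.6810.2 held 12.6 FPKM. The short ENSMUST00000130765, with 753 bases, held 7.87 FPKM with heme, 7.33 and 7.77 with induction, and 5.41 and 5.47 in the controls. Slc45a4 was the only member of the 66 in which the most abundant listed transcript was shared by the controls and found in no other library. By transcript, ENSMUST00000054266 had log2 fold changes of -2.85 ± 0.56 with heme and -2.85 ± 0.45 with induction (adjusted p = 0.434 and 0.475, limma), the smallest p of the 137 tested member transcripts in both.

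Slc50a1, a sugar carrier of the SWEET family, was at 8.49 FPKM with heme, 6.14 and 9.01 with induction, and 4.83 and 5.03 in the controls. The controls were the lowest, with log2 fold changes of 0.68 ± 0.30 and 0.51 ± 0.24 (adjusted p = 0.999 and 0.934, limma). Its only listed transcript, ENSMUST00000148095, is annotated as a retained intron, so its coding transcripts were not analysed here. Slc37a3, a sugar phosphate carrier family member, ranged from 3.37 to 5.76 FPKM, and its only listed transcript is annotated as a target of nonsense-mediated decay. In all, 4 of the 66 members have no listed transcript of their own annotated as protein coding: Slc50a1, Slc37a3, Slc39a7 and Slc9a8.

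Slc16a13, a monocarboxylate carrier (chromosome 11, 70216076 to 70220994, minus strand), had the largest positive difference of all members. It was at 11.8 FPKM in the heme library, 5.68 and 11.7 in the induction libraries, and 4.19 and 2.81 in the controls. The controls were the lowest of the 5, and induction replicate 1 lay nearer to them than to its partner. The log2 fold change was 1.53 ± 0.48 with heme and 1.05 ± 0.39 with induction (adjusted p = 0.999 and 0.934, limma). The coding transcript ENSMUST00000060010 was at 6.59 FPKM with heme, 1.89 and 6.69 with induction, and 2.85 and 2.21 in the controls, so with that form alone induction replicate 1 was the lowest library. The unnamed MSTRG.3297.2 held 5.25 FPKM with heme, 3.80 and 5.04 with induction, and 1.35 and 0.593 in the controls. Slc10a3, of the bile acid carrier family, shares its locus with Ubl4a, and the sum was at 19.3 FPKM with heme, 20.2 and 22.7 with induction, and 19.8 and 24.6 in the controls. Its own ENSMUST00000073067 was at 4.30 FPKM with heme, 6.54 and 8.43 with induction, and 4.85 and 4.19 in the controls, highest in the induction pair. Its other listed form, ENSMUST00000037967, has a coding sequence of the same 1419 bases and lay the other way, at 5.76 FPKM with heme, 4.02 and 1.60 with induction, and 5.48 and 6.46 in the controls. In induction against control the log2 fold changes of these forms were 0.61 ± 0.34 and -0.95 ± 0.51 (adjusted p = 0.891 each by transcript, limma), so the higher level of the first was offset by the second.

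The phosphate importers Slc20a1 and Slc20a2 supply cells with inorganic phosphate. Slc20a1 was at 31.1 FPKM with heme, 34.9 and 29.9 with induction, and 27.4 and 43.6 in the controls, whose pair spans the rest (log2 fold changes -0.15 ± 0.30 and -0.095 ± 0.24, and 0.18 and 0.23 without control replicate 2). ENSMUST00000028880 of Slc20a1 was at 13.6 FPKM in control replicate 1 and at 0.350 to 0.552 elsewhere, while ENSMUST00000110315 was at 4.81 there and 17.6 to 22.8 elsewhere. Both have the same coding sequence of 2043 bases. Slc20a2 was at 18.7 FPKM with heme, 18.8 and 17.9 with induction, and 19.7 and 21.6 in the controls.

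The carriers of vitamins, nucleosides, choline and lipids (8 members) had medians of 0.055 with heme and 0.065 with induction, with 5 and 6 positive and 0 passing. Slc19a2, the thiamine importer (chromosome 1, 164249046 to 164265385, plus strand), was at 4.49 FPKM with heme, 6.05 and 7.35 with induction, and 12.4 and 7.84 in the controls. The heme library was the lowest and both controls the highest, with log2 fold changes of -0.99 ± 0.33 and -0.50 ± 0.27 (adjusted p = 0.999 and 0.934, limma). The control pair itself spans a log2 difference of -0.60, and without control replicate 2 the fold changes were -1.29 and -0.80. Its relative Slc19a1, the reduced folate carrier, was at 23.8 FPKM with heme, 21.6 and 26.2 with induction, and 21.5 and 15.5 in the controls, with log2 fold changes of 0.36 ± 0.24 and 0.36 ± 0.20 against control. Without control replicate 2 both were 0.14. Slc29a1, the equilibrative nucleoside carrier, ranged from 29.04 to 36.7 FPKM, highest in the induction pair (log2 fold change 0.19 ± 0.11 against control, adjusted p = 0.934, limma, and 0.11 without control replicate 2). The choline carriers Slc44a1 (25.3 to 29.97 FPKM) and Slc44a2 (15.9 to 20.2), the ascorbate carrier Slc23a2 (4.92 to 5.61), the acetyl-CoA carrier Slc33a1 (11.5 to 13.3) and the fatty acid transport protein Slc27a1 (9.28 to 12.9) had highest-to-lowest ratios of 1.14 to 1.39. Control replicate 2 was at an end of the range for 4 of these 5, all but Slc33a1.

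Family 35 supplied 12 members. Its median log2 fold change was 0.0014 with heme and -0.040 with induction, with 6 and 5 positive and 0 passing. Slc35f5 had the family's largest difference with induction, at 9.91 FPKM with heme, 14.2 and 14.8 with induction, and 11.7 and 8.42 in the controls. The induction pair was the highest, with a log2 fold change of 0.50 ± 0.19 against control and -0.51 ± 0.24 for heme against induction (adjusted p = 0.934 and 1, limma). Without control replicate 2 the value against control was 0.28. The coding transcript ENSMUST00000027580 of Slc35f5 gave 0.93 ± 0.23 in induction against control (12.3 and 11.5 FPKM against 5.39 and 6.14, adjusted p = 0.757 by transcript, limma). The CMP-sialic acid carrier Slc35a1 was at 9.20 FPKM with heme, 11.9 and 8.82 with induction, and 8.09 and 9.64 in the controls. The GDP-fucose carrier Slc35c1 had 6.94 FPKM with heme, 6.92 and 6.92 with induction, and 7.39 and 6.79 in the controls. Slc35c2 was highest with heme, at 10.5 FPKM, against 8.37 and 8.28 with induction and 9.33 and 8.05 in the controls. The heme value of its transcript ENSMUST00000132270, annotated as a target of nonsense-mediated decay, was 6.63 FPKM, against 0 to 2.52 elsewhere. The coding ENSMUST00000017808 was listed at 0 with heme, against 3.43 and 2.85 FPKM with induction and 4.61 and 3.95 in the controls. Its log2 fold changes were -2.40 ± 0.56 against control and -2.05 ± 0.56 against induction (adjusted p = 0.543 and 0.649 by transcript, limma). ENSMUST00000109299, with the same 1092 coding bases, was highest with heme, at 2.86 FPKM against 0 to 1.83 elsewhere.

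Slc35a5 was at 5.43 FPKM with heme, 5.45 and 3.66 with induction, and 9.01 and 2.75 in the controls, the largest control difference on the log2(FPKM + 1) scale after Slc7a1 and Slc9a8. The other members were Slc35a3, the UDP-N-acetylglucosamine carrier (10.7 to 16.1 FPKM), Slc35a4 (11.5 to 14.1), Slc35b2, the carrier of the sulfate donor PAPS (18.6 to 24.7), Slc35e4 (14.4 to 17.9), Slc35f6 (7.75 to 10.1) and Slc35g1 (7.10 to 9.94). The lowest value came from induction replicate 2 for Slc35a3, Slc35a4 and Slc35f6, from control replicate 2 for Slc35b2 and from the heme library for Slc35e4 and Slc35g1.

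Slc35b1, a nucleotide carrier of the endoplasmic reticulum, kept a sum of 25.7 FPKM with heme, 25.98 and 24.5 with induction, and 25.7 and 20.8 in the controls. The coding ENSMUST00000021243 made up 9.66 FPKM with heme, 10.9 and 22.2 with induction, and 8.86 and 18.1 in the controls. ENSMUST00000131193, annotated as a target of nonsense-mediated decay, made up 16.1 FPKM with heme, 15.1 and 2.35 with induction, and 16.8 and 2.66 in the controls. The split thus separated the replicates of each group, not the groups. The annotated reading frames hold 966 and 468 bases, and their first 30 bases are printed because the starts differ.
Slc35b1 ENSMUST00000021243: ATGgccgctagtagatccctggtgcctgat
Slc35b1 ENSMUST00000131193: ATGaggtccctgccgccggccggcgatgtc

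Several listed transcripts were found for 45 members, and in 30 of these the most abundant one was not the same in all 5 libraries. It differed between the induction replicates in 22 and between the control replicates in 17. These counts were not made over all loci, so they are not read as a property of the carriers. The control pair stood alone with its own transcript in Slc45a4, the heme library in Slc35c2, and the induction pair against the control pair in Slc10a3, through a transcript of Ubl4a in the controls. Tested by transcript, 0 of 137 member transcripts passed in any comparison (limma, over 14292 transcripts, of which 0.049%, 0% and 0.056% passed in heme against control, induction against control and heme against induction). Unadjusted p-values below 0.05 were found for 3, 7 and 2 of the 137, which is 2.19%, 5.11% and 1.46%, against 5.92%, 4.9% and 5.93% of all transcripts. Unnamed assembled transcripts held 13.1% of the members' FPKM in the heme library, 19.4% and 15.8% in the induction libraries, and 15.4% and 12.8% in the controls.

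How far replicates lay apart sets the scale for these differences. Control replicates differed by a median absolute log2 value of 0.23 over the members and 0.21 over all loci, and induction replicates by 0.14 and 0.10. Between the heme library and control replicate 1 it was 0.13 over the members and 0.088 over all loci, less than between the controls. The heme library was not set against control replicate 2 in this way. Of the 63 members above 0.5 FPKM in all 5 libraries, 15 had a highest-to-lowest ratio under 1.2 (23.8%, against 32.4% of loci above that level) and 10 had a ratio of 2 or more (15.9%, against 13.4%). Control replicate 2 was the highest or the lowest library for 45 of the 66, the highest for 33.3% and the lowest for 34.8%, against 28.3% and 32.3% of all loci. Without it, the log2 fold change against control took the other sign for 17 of 64 members with heme and for 24 of 64 with induction. Sign changes were not counted over all loci, so these numbers are not read as a property of the carriers.

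The genes that power or assist carriers were read from a list of 19, of which 9 were in the table, and 0 passed. Atp1b3, a beta subunit of the sodium pump, ranged from 73.7 to 82.1 FPKM, with control replicate 2 the highest. Bsg, the chaperone of monocarboxylate carriers, was at 385 FPKM with heme, 369.8 and 370.2 with induction, and 395 and 440 in the controls, where both treated groups lay below both controls (log2 fold changes -0.11 ± 0.098 and -0.17 ± 0.080, adjusted p = 0.999 and 0.934, limma). Stk39, a kinase that regulates cation-chloride cotransporters, was at 8.59 FPKM with heme, 8.93 and 8.63 with induction, and 8.80 and 3.55 in the controls, with control replicate 2 the low library. Over the 8 listed carriers of the Golgi and endoplasmic reticulum outside family 35, the median log2 fold change was 0.025 with heme and 0.0068 with induction, and 0 passed.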

How the data were processed

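Messenger RNA libraries of 6 samples, 2 per group, were sequenced. The table that the authors deposited gives, for each assembled transcript and library, an FPKM value and a coverage signal. HISAT2, StringTie, edgeR and the build GRCm38 (mm10) are named, with no versions, in the submitters' processing notes. Strand use in counting is not given in the sources used here. The deposited FPKM values are not counts, so no count model was used. FPKM were summed per locus with Python 3.11.15 and pandas 2.3.3, loci with a mean of at least 1 FPKM over 5 libraries were kept (7028), and log2(FPKM + 1) was fitted with limma 3.58.1 in R 4.3.3, with Benjamini-Hochberg adjustment at 0.05. The fit had 2 residual degrees of freedom, and the lone heme library was assumed to vary like the others. The added 1 FPKM makes fold changes of low genes smaller than they are. The second heme column was left out. The spread between 2 libraries limits the precision. Coverage served only for depth. Length-weighted FPKM is FPKM times transcript length in kilobases, summed per locus. Transcript types and reading frames are from GENCODE M21, the promoter from RefSeq (GRCm38.p6).

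Members and lists were chosen with earlier results of these data known. Named with values were the 10 highest members, for each comparison and direction the 4 largest differences without overlap at 2 FPKM or more, the 6 largest differences between controls, metal carriers, 13 genes fixed by name, and up to 8 members whose leading transcript differed between libraries. Other members were added after their values were seen. Values of 2 members and 1 other gene are not reported here, though the counts include them. Alternatives changed the heme columns, pseudocount, filter, scaling, rows summed, replicate block, libraries left out and scale.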

Additional observations from a re-analysis of the deposited data

How the results depend on the processing

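No carrier passed the threshold under any alternative but 1. With all 6 columns as replicates, 1 carrier passed in heme against control, Slc16a13, with a log2 fold change of 1.74 (adjusted p = 2.6e-05, limma), while 183 loci passed in the whole table in that comparison, 43 in induction against control and 176 in heme against induction. The second heme column is a rescaled copy of the first, so that fit counts 1 library as 2. As reported above, 3, 1 and 4 loci passed. With transcripts carrying the gene name only the counts were 1, 0 and 1, in length-weighted FPKM (an alternative chosen after seeing the data) 0, 0 and 0, and without each replicate in turn 0 in all 3 comparisons. Induction against control had 0 under the mean of both heme columns, a pseudocount of 0.1 and no filter. The causes were not tested. A fit without a control or induction replicate leaves 1 library in that group, so counts of carriers at an unadjusted p are not read from it.

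Over locus sums, control and induction samples that share a replicate number did not deviate together (r = -0.0424 over 7028 loci). Whether they share a culture or a batch was not tested. With the replicate block 4, 1 and 4 loci passed and 0 carriers.

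Of 1548 values of named carriers under alternatives, 1400 kept their sign without a call and 147 took the other sign without one, most often without control replicate 2 (25). Differences of at least 0.2 changed sign in all 3 comparisons. Under the gene name only, Slc38a10 turned from 0.24 to -0.81 with induction, and Slc11a2 from 0.26 to -0.76. Slc38a10 also turned from -0.30 to 0.94 in heme against induction. In length-weighted FPKM, Slc35a5 turned from 0.23 to -0.63 in heme against induction. Without control replicate 1, Slc9a8 turned from 0.27 to -0.66 with induction. Slc30a9, Slc1a4, Slc6a9, Slc18b1 and Slc48a1 also changed sign under some alternative. The heme group rests on 1 library, a sum depends on which transcripts are listed, and levels of a few FPKM carry the widest errors.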
